A study of Drosophila melanogaster with 3 samples.

Results

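Of 8996 peaks of a GFP-tagged Fruitless protein in the Drosophila melanogaster genome, 937 had their summit within 500 bp of the transcription start sites (TSSs) of at least 2 different protein-coding genes. They made up 10.4% of all peaks (95% Wilson interval 9.80% to 11.1%) and 28.1% of the 3329 summits within that distance of any protein-coding TSS. The other 2392 promoter summits were near 1 protein-coding gene and served as the comparison. Within this list the members were chosen by position. The list itself holds the strongest of 30000 pooled regions after the authors' reproducibility threshold, so signal and reproducibility decided which summits could be members of either class.

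Binding was mapped by ChIP-seq (chromatin immunoprecipitation and sequencing) with an anti-GFP antibody, in whole wandering larvae of the third instar, males and females together. The flies carried an eGFP exon, introduced through a MiMIC insertion into a fru intron, and the tagged protein was therefore made from the gene's own locus. The data came from 3 biological replicates of this 1 genotype, Fru-GFP, with no second condition. A control experiment named in the labels was not analysed here, and depth was unknown because the lists hold no read counts. Whole larvae mix many tissues, and the cells in which a promoter was bound could not be told apart.

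Fruitless proteins carry a BTB domain and zinc fingers with which they bind DNA, and they are known for building the neural circuits of male courtship. Fly genes often lie back to back: in a divergent pair the TSSs face away from each other and share the stretch of DNA between them as promoter region for both genes. In a tandem pair both genes are read in the same direction, and in a convergent arrangement the TSSs point towards each other, so that the starts of the genes overlap or face. Many divergent pairs in flies join genes needed in every cell, and many such promoters carry the DNA replication-related element (DRE), which is bound by the factor DREF.

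The DNA between the TSSs of 7 divergent pairs is shown because the summit lay inside it. The first 5 are among the 12 strongest divergent members and have at most 300 bp, free of annotated exons, between their TSSs. The last 2 are further pairs of that kind that hold the DRE word TATCGATA. Not every chromosome arm was considered, so a pair that is missing here need not have failed these criteria. Sequences are from the RefSeq release 6 genome, which has dm6 coordinates. Each begins at the base after the left TSS and ends at the base before the right TSS. The name gives the left gene, read leftwards, and then the right gene, read rightwards. The 21 capital bases are centred on the summit, and the other capitals in the last 2 sequences are the DRE word.
CG3226/Cdc7 (dm6 chrX:6654249-6654540, + strand): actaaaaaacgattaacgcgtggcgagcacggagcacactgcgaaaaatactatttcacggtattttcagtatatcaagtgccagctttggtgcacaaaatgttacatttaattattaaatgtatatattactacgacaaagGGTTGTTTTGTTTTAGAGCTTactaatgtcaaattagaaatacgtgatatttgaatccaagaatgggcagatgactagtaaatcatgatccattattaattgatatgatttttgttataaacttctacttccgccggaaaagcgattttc
Tcs5/CHMP2B (dm6 chr3L:5139396-5139618, + strand): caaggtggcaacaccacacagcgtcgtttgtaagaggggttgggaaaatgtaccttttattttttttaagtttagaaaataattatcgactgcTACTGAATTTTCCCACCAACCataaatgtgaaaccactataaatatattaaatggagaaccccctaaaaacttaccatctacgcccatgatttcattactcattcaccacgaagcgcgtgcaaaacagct
Art3/mRpS10 (dm6 chr3R:15229409-15229664, + strand): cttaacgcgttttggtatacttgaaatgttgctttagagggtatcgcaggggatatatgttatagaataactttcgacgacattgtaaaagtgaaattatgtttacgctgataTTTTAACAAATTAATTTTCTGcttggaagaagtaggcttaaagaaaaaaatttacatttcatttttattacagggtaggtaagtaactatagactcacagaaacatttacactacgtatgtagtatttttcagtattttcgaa
CG3437/CG3552 (dm6 chr3L:9457670-9457911, + strand): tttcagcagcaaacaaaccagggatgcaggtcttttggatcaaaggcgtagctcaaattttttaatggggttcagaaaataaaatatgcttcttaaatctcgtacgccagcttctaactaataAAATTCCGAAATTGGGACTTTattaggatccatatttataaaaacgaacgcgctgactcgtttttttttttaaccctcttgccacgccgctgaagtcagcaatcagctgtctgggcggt
Nelf-E/RpL14 (dm6 chr3L:8600880-8601005, + strand): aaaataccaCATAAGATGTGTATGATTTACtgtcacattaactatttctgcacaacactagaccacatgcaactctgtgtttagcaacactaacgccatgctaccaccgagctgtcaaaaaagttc
Atat/Shc (dm6 chr3L:9426759-9427009, + strand): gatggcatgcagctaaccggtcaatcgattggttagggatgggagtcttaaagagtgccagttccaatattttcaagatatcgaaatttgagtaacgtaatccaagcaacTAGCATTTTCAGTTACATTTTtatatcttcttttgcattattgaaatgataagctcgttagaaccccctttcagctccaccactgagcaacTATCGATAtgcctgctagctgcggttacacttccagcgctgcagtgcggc
Gmd/CG3792 (dm6 chr2L:4977024-4977311, + strand): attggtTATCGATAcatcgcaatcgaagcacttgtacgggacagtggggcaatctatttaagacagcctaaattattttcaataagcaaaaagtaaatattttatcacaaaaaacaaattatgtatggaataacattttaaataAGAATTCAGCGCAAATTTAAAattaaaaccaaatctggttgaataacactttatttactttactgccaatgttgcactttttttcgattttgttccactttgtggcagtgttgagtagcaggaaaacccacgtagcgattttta

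In the first 4 of these intervals the summit lay 4.5 to 12.5 bp from the midpoint of the pair. At Nelf-E/RpL14 it lay 43.5 bp away, 20 bp from the TSS of Nelf-E. The DRE word began at base 202 of 251 at Atat/Shc and at base 7 of 288 at Gmd/CG3792, and its centre lay 84.5 bp and 144.5 bp from the summit. In both of these pairs the word was therefore close to 1 TSS while the summit lay nearer to the middle.

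Divergent pairs accounted for 828 of the 937 shared summits, or 88.4% (interval 86.2% to 90.3%). Tandem pairs accounted for 80 and convergent pairs for 29, each classed by the nearest TSSs of the 2 nearest genes. When each replicate's own 8996 strongest regions were classified alone, the divergent share was 89.2%, 89.6% and 88.9%. The count of shared summits was 1000 in replicate 1, 1032 in replicate 2 and 966 in replicate 3. Most members, 894, touched exactly 2 genes, while 37 touched 3 and 6 touched more. The members covered 830 distinct nearest pairs, 105 of which had more than 1 summit, so the summits of such a pair are not independent of each other.

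The distance between the TSSs differed by orientation. It had a median of 295.5 bp at divergent pairs (quartiles 212.75 and 393.5 bp, range 1 to 849 bp) and of 132 bp at convergent pairs (range 11 to 266 bp). At 66 of the 80 tandem members the distance was 0, meaning that the annotation starts both genes at the same base. Such members are 1 start site that carries more than 1 gene name rather than neighbouring promoters, and leaving out tandem pairs within 10 bp raised the divergent share to 95.3%. Around the limit of 500 bp, 87 summits had their second gene at more than 400 and up to 500 bp and 57 at more than 500 and up to 600 bp. Just inside the limit were CG8176/Kdm3 (second TSS 494 bp away), Lip3/CG34309 (491 bp) and Hip14/PolD1 (489 bp). Just outside were Zif/CG9727 (508 bp), Aldh7A1/CG14085 (510 bp) and Ugt302K1/Ugt302E1 (511 bp).

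**Figure D1:**
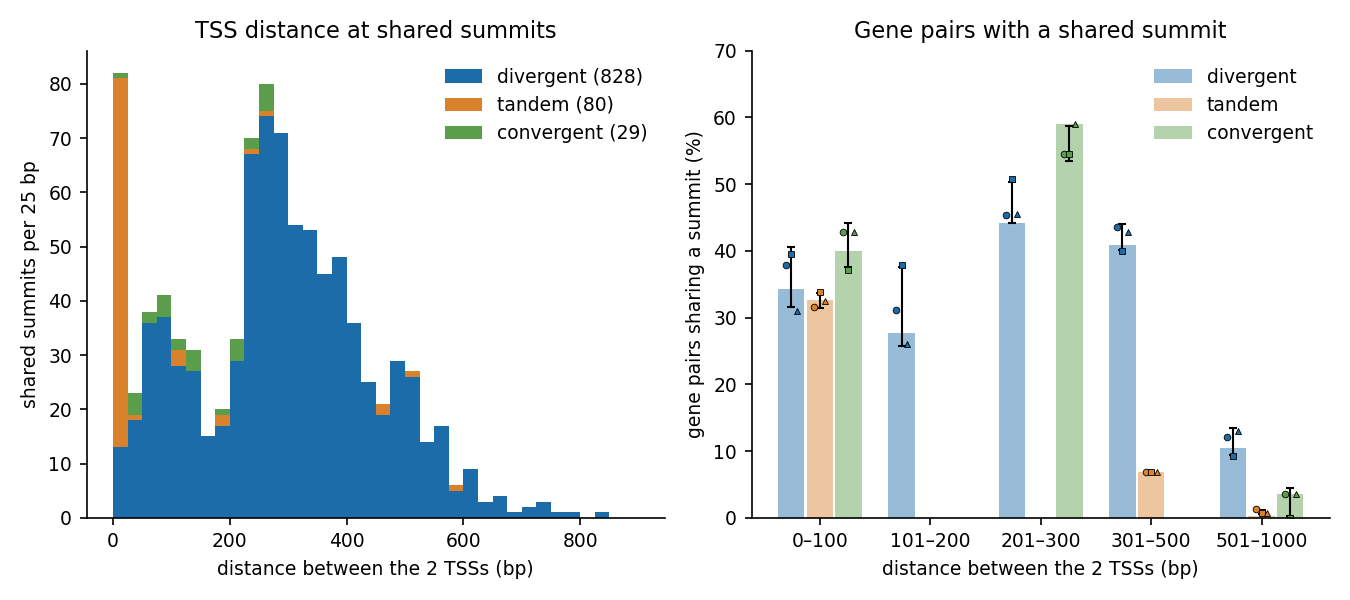
Left, distance between the TSSs (bp) at the 937 shared summits, stacked by orientation, with the divergent members spread around 295.5 bp and most tandem members at 0. Right, percent of all gene pairs with TSSs within 1000 bp that shared a summit, by orientation and distance, for classes of at least 20 pairs; bars are the thresholded list, symbols the 3 replicates (circle 1, square 2, triangle 3) and error bars their mean ± SD, and divergent pairs at 200 to 300 bp reached 44.2%.

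The strongest shared summit lay between Golgin97, which encodes a golgin of the Golgi apparatus, and cnn, which encodes the centrosome scaffold protein Centrosomin. Its summit was at 2R 13450551, 35 bp from the TSS of Golgin97 and 76 bp from that of cnn, and its signal value (the authors' score for a peak) was 4342. It was in place 8 of the thresholded list, and the nearest region lay in places 10, 4 and 14 of the lists of replicates 1, 2 and 3. The 12 strongest divergent members held places 8 to 63 in the thresholded list, and each was found in all 3 replicates.

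The second strongest, at X 6654401, lay between CG3226 and Cdc7, whose product is a kinase that starts DNA replication (signal value 3669, places 69, 19 and 5 in the replicates). The summit between Chro, which encodes the chromosome and spindle protein Chromator, and Ssl1, a subunit of the general transcription factor TFIIH, came next at 3L 22878900 (3080, places 14, 24 and 33). That summit fell outside the pair, 84 bp inside Chro. The places of the Cdc7 summit were the most spread of these 3, and all 3 summits held a place under 100 in each replicate.

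The 12 strongest divergent members included genes of ribosomal proteins and of transfer RNA modification. The gene of the mitochondrial ribosomal protein mRpS23 shared a summit at 2L 13835463 with CenG1A, which encodes an Arf GTPase activator (2806, places 28, 31 and 37). That of mRpS10 shared one at 3R 15229532 with Art3, an arginine methyltransferase gene (2623, places 24, 44 and 57). RpL14, of the cytoplasmic ribosome, shared one at 3L 8600899 with Nelf-E, a subunit of the negative elongation factor that pauses RNA polymerase (2121, places 63 and 42 in replicates 1 and 2, and just past 100 in replicate 3). Tcs5, of the KEOPS complex that modifies transfer RNAs, lay back to back with CHMP2B, of the ESCRT-III membrane-cutting complex, at 3L 5139499 (2773, places 23, 30 and 44).

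The remaining strong divergent members were Pal1/Pdrg1, where Pal1 encodes an enzyme of peptide amidation, CG9147/Fbw5, with an F-box protein gene, and the uncharacterised pairs CG8360/CG8372, CG11309/CG7632 and CG3552/CG3437. Their signal values ran from 2190 to 2570. The shortest divergent distance was 1 bp, between Atg6, the fly Beclin 1 gene of autophagy, and Pisd, which encodes phosphatidylserine decarboxylase. Its summit at 3R 24050779 was strong (1965, place 71, and places 119, 36 and 110 in the replicates). The longest was 849 bp, between Atg16, another autophagy gene, and Prtl99C (138.8, place 6743).

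Tandem and convergent members reached high signal too. The strongest tandem summit lay 328 bp upstream of the common start of Sesn, which encodes the stress-induced growth inhibitor Sestrin, and CG46429 (1885, place 79). It was at places 81 and 86 in replicates 1 and 3, and replicate 2 had no summit within 100 bp of it. The strongest convergent summit, at 2L 7984280, lay 84 bp upstream of Snoo, a Ski and Sno family gene, and 334 bp inside CG7231 (1931, place 73). Further tandem members were CG8788/CG44286, Ufsp1/Cyp6u1, CG44245/Gyg, with the glycogenin gene, and Alp12/CG13085/Pax, with the paxillin gene, at places 229 to 408. Further convergent members were Adck1/CG4741, CG31808/Cyt-c-d, with a cytochrome c gene, and CG4658/CG5846, at places 145 to 870. RabGGTb/Sbat had the longest tandem distance, 592 bp, and mAcon1/CG43345 and Nep1/Mipp2 the shortest and longest convergent distances.

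A few members touched many genes. One summit at 3R 21365437 lay near the starts of 10 pre-mod(mdg4) genes, which the annotation lists as separate precursors of the trans-spliced gene mod(mdg4) (1057, place 314). Another touched 5 genes, among them PIG-M, of glycolipid anchor synthesis, and NC2alpha, of a TATA-binding-protein repressor (812.8, place 545). At the tarsal-less locus, where 1 transcript encodes several small peptides, 4 tal genes shared a summit (223.6, place 3969). At CG31650, CG33995, CG44000 and CG44001 the count was also 4. At the PIG-M and tal summits the nearest genes start at the same base, so 1 start carries several gene names.

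At divergent pairs the summit lay between the TSSs in 647 of 828 cases, or 78.1% (interval 75.2% to 80.8%). The share was 79.6%, 75.1% and 79.5% in the 3 replicates. Distance classes here leave out their lower bound, so that the class of 100 to 200 bp begins above 100 bp. The share grew with distance, from 26.7% at 0 to 100 bp through 55.2% at 100 to 200 bp and 84.2% at 200 to 300 bp to 91.2% at 300 to 500 bp. Above 500 bp it was 100%, which the selection rule fixes. The rule also favours a rise in the other classes, since a summit must lie within 500 bp of both TSSs. The interval between the TSSs made up, on average, 6.51%, 17.0%, 34.8% and 63.3% of that allowed stretch in the first 4 classes, and the share of summits inside it was above this in each. Fragments of 200 to 800 bp limit how finely a summit can be placed.

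The summit was nearest to the midpoint at pairs 200 to 300 bp apart, with a median offset of 38.5 bp (44.0, 49.0 and 38.5 bp in the replicates). The offset was 65.5 bp at 0 to 100 bp, 63.0 bp at 100 to 200 bp and 93.25 bp at 300 to 500 bp. Among summits between TSSs at least 100 bp apart, 410 of 620, or 66.1%, lay in the middle 50% of the interval, and in the replicates 62.8%, 59.4% and 69.3% did. The 87 members above 500 bp are among the 620. For them the selection rule allows only a stretch around the midpoint, which favours the middle and fixes the outcome at the longest distances. The share without them was not computed. The distance to the nearest TSS was shorter at divergent members than at summits of 1 gene, with medians of 90 and 157 bp. A divergent pair offers more TSSs within reach, and its part in this difference was not tested. The summit lay upstream of that TSS in 78.0% of divergent members and 72.4% of the others. The replicates differed by 5.50 ± 1.77 percentage points (SD, n = 3) in the same direction in 3 of 3 (exact sign-flip permutation test, two-sided, p = 0.25, the smallest value that 3 replicates allow). At a divergent pair this is nearly the same measure as lying between the TSSs (646 and 647 of 828). For the 87 divergent members above 500 bp the selection rule fixes it at 100%, a limit that summits of 1 gene do not have. The part of this rule in the difference was not tested.

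**Figure D2:**
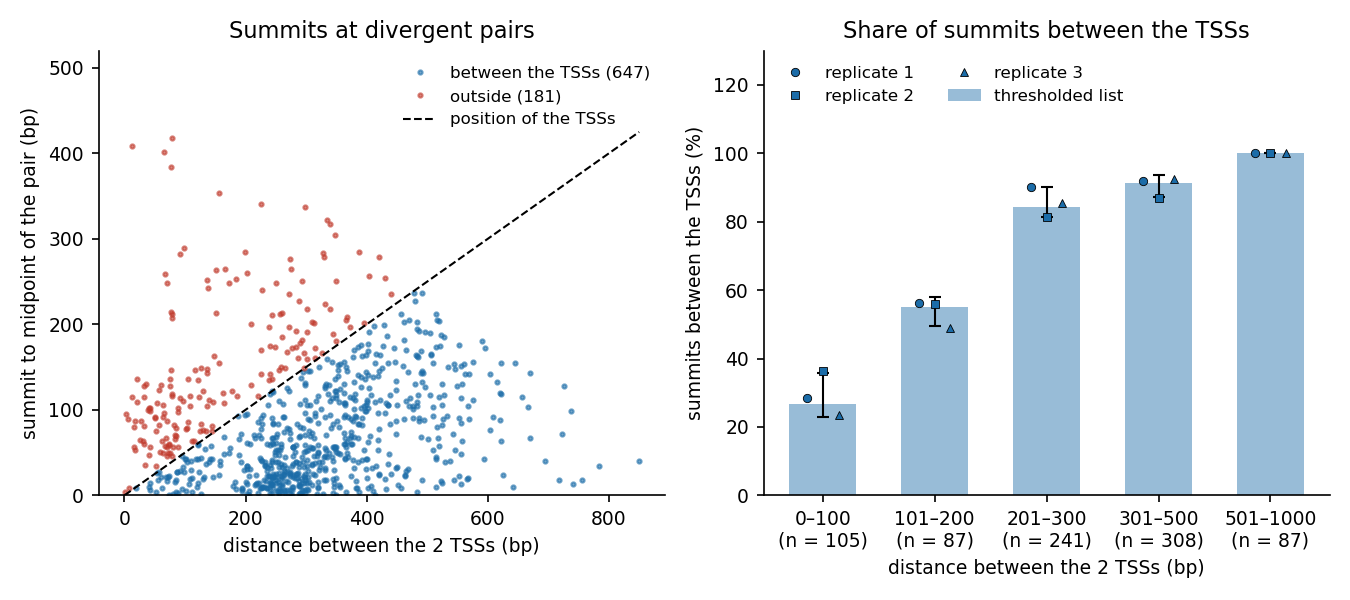
Left, distance from the summit to the midpoint of the pair against the distance between the TSSs (both bp) for the 828 divergent members, with the 647 summits between the TSSs under the dashed line. Right, percent of summits between the TSSs by distance class, with bars for the thresholded list, symbols for each replicate and error bars for their mean ± SD, rising from 26.7% to 100%.

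Shared summits were counted against all gene pairs that could have had one. Of 3520 pairs with TSSs within 1000 bp of each other, 27.6% shared a summit. The value was 31.0% of the 2616 divergent pairs (interval 29.3% to 32.8%), 15.6% of the 800 tandem pairs (13.3% to 18.3%) and 34.6% of the 104 convergent pairs (26.2% to 44.2%). The excess of divergent over tandem pairs was 17.6, 17.5 and 15.9 percentage points in the replicates, or 17.0 ± 0.966 (SD, n = 3), in the same direction in 3 of 3 (exact sign-flip permutation test, p = 0.25). It was not the same at every distance. Within 100 bp the shares were 34.3% and 32.7%, and the excess was 6.24, 5.74 and -1.48 points in the replicates (mean 3.50 ± 4.32, p = 0.5 by the same exact test). A summit near more than 2 genes can count for several pairs, so pairs are not independent, although the intervals treat them so. Tandem pairs with a shared summit numbered 125, of which 121 lay within 100 bp, against 80 tandem members. The tandem share with each summit counted once was not tested. Tandem pairs either started within 100 bp of each other (370 pairs) or lay mostly beyond 500 bp (396 pairs, 0.253% shared), so orientation and distance were not independent over all pairs. With a limit of 250 bp for each gene it was 7.69 points, and among the 4498 strongest peaks 9.74.

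Among divergent pairs the share was highest at 200 to 300 bp, at 44.2% (45.4%, 50.9% and 45.6% in the replicates), followed by 40.9% at 300 to 500 bp (43.6%, 39.9% and 42.9%). It was 34.3% at 0 to 100 bp and 27.7% at 100 to 200 bp. In each replicate the class of 200 to 300 bp was the highest of the 5. The stretch within 500 bp of both TSSs shrinks as the distance grows, so a fall with distance is built into the count, while the rise from the second to the third class runs against it. Convergent pairs of the thresholded list were also highest at 200 to 300 bp, at 59.1% of only 22 pairs (54.5%, 54.5% and 59.1% in the replicates). The share of divergent pairs ran from 26.5% on 2L to 35.5% on 3R among the large chromosomes, with 31.6% on X.

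In terms of genes, 1707 protein-coding genes had a shared summit, which is 12.2% of 13968 and 49.7% of the 3436 genes (24.6%) with any promoter summit. Of genes in a divergent pair, 36.9% had a summit within 500 bp, shared or not, against 17.4% of genes with no partner TSS within 1000 bp. The replicates differed by 22.0 ± 1.07 points (SD, n = 3), in the same direction in 3 of 3 (exact sign-flip permutation test, p = 0.25). A summit at a partner's TSS can count for both genes of a pair, and this part of the difference was not tested.

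The signal value of shared summits had a median of 260.4, against 204.3 at summits of 1 gene and 201.4 over all peaks. As a percentile of the list the medians were 64.1 and 50.9. In replicates 1, 2 and 3, each ranked within its own list, the medians of shared summits were 63.8, 59.8 and 60.3 and those of summits of 1 gene were 52.2, 48.7 and 50.7. The difference of 10.7 ± 1.05 percentile points (SD, n = 3) was in the same direction in 3 of 3 (exact sign-flip permutation test, p = 0.25). In the strongest 10% of the list stood 14.6% of the shared summits and 12.5% of those of 1 gene, a smaller gap (1.33 ± 0.872 points over the replicates, SD, n = 3). The difference of 13.3 points in the thresholded list was 21.9 with a limit of 250 bp, 8.18 with 1000 bp and 2.00 among the 4498 strongest peaks. Among peaks present in both remaining replicates it was 8.88 without replicate 1, 5.20 without replicate 2 and 6.73 without replicate 3. Percentiles were not ranked again within these smaller sets of peaks. The 4498 strongest peaks span only the upper part of the scale, and presence in replicates rises with signal. Such cuts narrow the difference that is possible, so these values cannot show how it depends on signal.

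**Figure D3:**
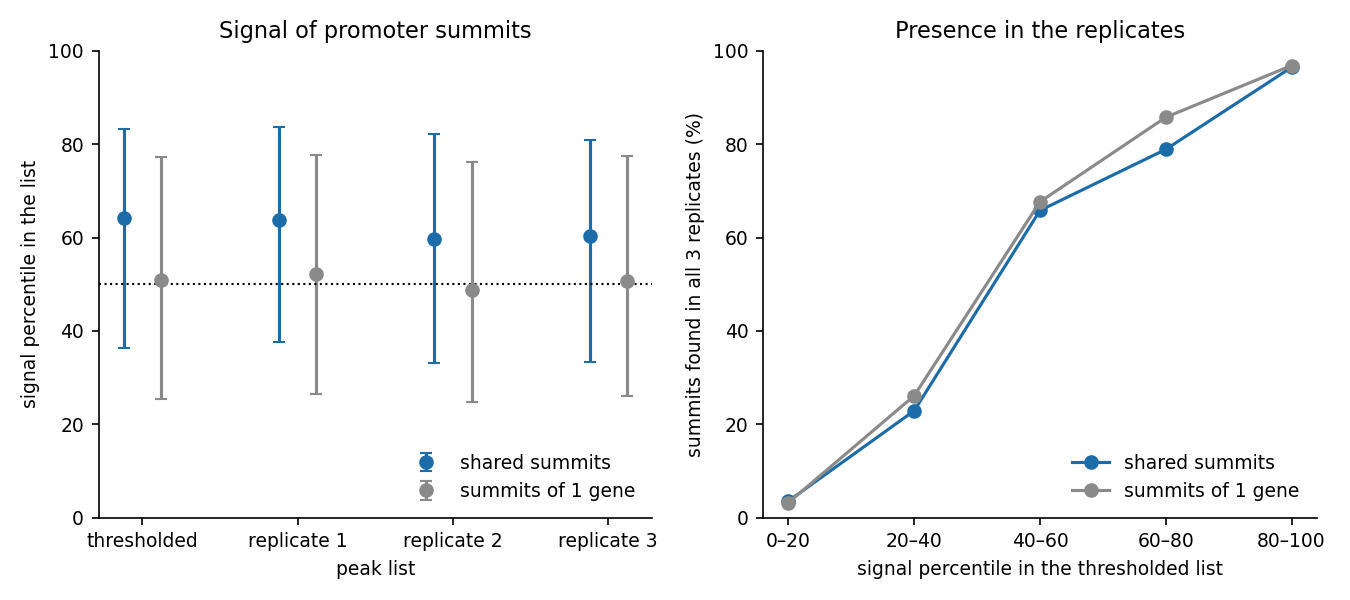
Left, percentile of the signal value within each list for shared summits and summits of 1 gene, as median with quartiles, where the shared medians of 59.8 to 64.1 stand above those of 1 gene in every list (dotted line, list median). Right, percent of summits found in all 3 replicates in 5 classes of the signal percentile, where both classes rise with signal, from 3.60% to 96.5% for shared summits and from 3.25% to 96.8% for those of 1 gene.

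Of the 937 shared summits, 597 had a summit within 100 bp in all 3 replicates, or 63.7% (interval 60.6% to 66.7%). The value was 56.8% for summits of 1 gene and 58% for all peaks. In the strongest regions of single replicates 82.8%, 81.1% and 84.7% of the shared summits were found. For summits of 1 gene these values were 74.2%, 83.1% and 80.7%, so the shared summits were lower in replicate 2. Presence rose with signal in both classes. From the weakest to the strongest of 5 signal classes, 3.60%, 22.9%, 65.8%, 78.9% and 96.5% of shared summits were found in all 3. The values for summits of 1 gene were 3.25%, 26.1%, 67.7%, 85.7% and 96.8%. The shared summits, which were the higher class without regard to signal, were thus the lower one in 4 of the 5 signal classes. These classes held 111 to 282 shared summits. Apart from 78.9% and 85.7% the values lay close together, and the differences were not tested. Divergent, tandem and convergent members had values of 64.0%, 61.3% and 62.1%.

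Sequence around the members was compared over windows of 50 bp to each side of the summit, in which 12 words were searched on both strands. The full DRE word TATCGATA stood at 5.34% of shared summits (50 of 937), at 1.96% of summits of 1 gene and at 1.21% of all peaks. The replicates gave 5.10%, 5.81% and 3.00% for shared summits and 2.78%, 2.26% and 1.47% for summits of 1 gene. The difference was 2.47 ± 1.02 points (SD, n = 3), in the same direction in 3 of 3 (exact sign-flip permutation test, p = 0.25). The same windows around all 19275 protein-coding TSS positions held the word in 4.48%, close to the shared summits, and with a limit of 250 bp the difference in the thresholded list was 0.863 points in place of 3.37.

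The short core CGATA, part of the full word, was found at 27.5% of shared and 16.6% of other promoter summits, with 23.6% at TSSs. In the weakest signal class these 2 kinds of summit had it at 36.9% and 16.1%, and in the strongest at 16.7% and 13.2%. TATAAA, the letters of the TATA box, was found at 22.5% and 16.6%, with 15.5% at TSSs. Words that were rarer at shared summits were GAGAG, the letters bound by GAGA factor, at 7.58% against 15.9%, and the CA repeat CACACA at 5.02% against 8.53%. At TSSs these stood at 12.7% and 8.46%. Each of these 4 words differed in the same direction in 3 of 3 replicates. TCAGT, the core of the initiator, was at 16.5% and 19.5%, below the 31.7% of windows centred on a TSS. The M1BP element GGTCACAC was at 2.35% and 1.46%, the Ohler motif 7 CATCNCTA at 2.67% and 1.92%, and the Tramtrack-like element AGGATAA at 1.28% and 0.711%. At TSSs the first 2 of these were more frequent than at shared summits, at 4.67% and 3.39%, and the last was at 0.540%. Shares of the E-box CACGTG, of the Zelda element CAGGTA and of the Ohler motif 6 GTATNTTT differed in opposite directions between replicates. A match is a description of letters only.

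**Figure D4:**
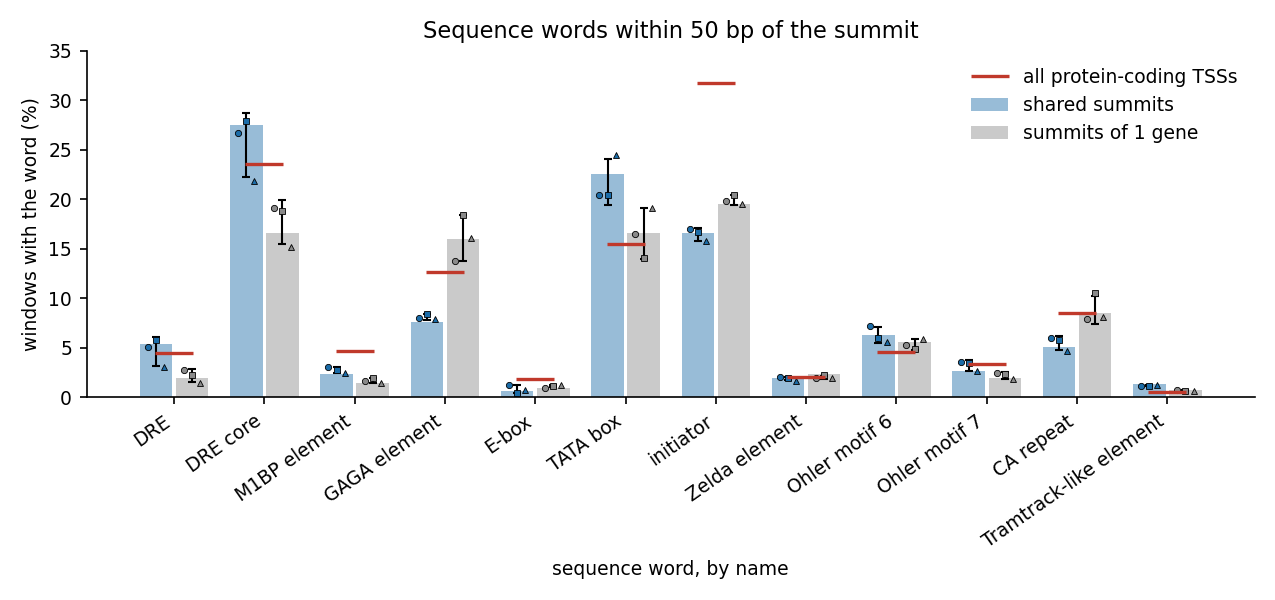
Percent of windows within 50 bp of the summit that hold each of 12 words, shown by name, for shared summits and summits of 1 gene (bars, thresholded list; symbols, the 3 replicates; error bars, their mean ± SD), with red marks for windows on all protein-coding TSSs. The DRE core stands at 27.5% of shared summits and the GAGA element at 7.58%, against 16.6% and 15.9% at summits of 1 gene.

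The difference was also seen in wider windows, which hold more copies of any word. Within 500 bp of the summit TATCGATA was found at 27.1% of shared summits (254 of 937), 8.57% of summits of 1 gene and 11.1% of TSSs. The replicates gave 26.3%, 26.1% and 26.4% for shared summits and 10.2%, 9.71% and 8.06% for the others, a difference of 16.9 ± 1.24 points (SD, n = 3; exact sign-flip permutation test, p = 0.25). By the selection rule a window of this width holds TSSs of at least 2 genes at shared summits and of 1 gene at the others. The word was concentrated at TSSs. Their nearest copy lay within 50 bp at 4.61% of them and at 100 to 150 bp at 0.690%. The part of the number of TSSs in the difference was not tested. The nearest copy lay at a median of 125.5 bp from shared summits that had one and 98.5 bp from summits of 1 gene, and 20.5% and 24.9% of the nearest copies lay within 50 bp. In steps of 50 bp from the shared summits, the nearest copy fell in the first 3 steps at 5.55%, 5.12% and 6.08% of them. It fell in the step of 300 to 350 bp at 2.03%.

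Divergent pairs without a shared summit often had the word too. Around the midpoint of divergent pairs that shared no summit, 20.7% of 1805 had the word within 500 bp, against 28.6% of the 811 pairs that shared one. The replicates differed by 6.39 ± 0.680 points (SD, n = 3), in the same direction in 3 of 3 (exact sign-flip permutation test, p = 0.25). By distance, the pairs with a summit had the word in 22.2% and those without in 25.7% at 0 to 100 bp, but in 27.6% and 17.6% at 100 to 200 bp and in 39.1% and 20.4% at 500 to 1000 bp. Pairs with a summit had the higher share in each of the 4 classes beyond 100 bp.

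Shared summits lay in DNA rich in A and T. The mean G + C content within 50 bp was 34.3% at shared summits, 39.1% at summits of 1 gene and 43.6% at TSSs. Over all peaks it was 36.0%, so the whole list was low and nearer to the shared summits. The replicates gave 34.9%, 36.0% and 33.1% for shared summits and 38.7%, 41.1% and 37.8% for summits of 1 gene (difference -4.56 ± 0.703 points, SD, n = 3; exact sign-flip permutation test, p = 0.25). The content fell to 33.5% at the summit and rose to 48.5% and 48.3% at 500 bp to either side, while around summits of 1 gene it stayed between 38.4% and 43.4%. Midpoints of divergent pairs without a shared summit had 34.3%, against 32.4% with one. Up to 200 bp apart the pairs with a summit had the higher content, for example 41.1% against 39.3% at 100 to 200 bp.

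**Figure D5:**
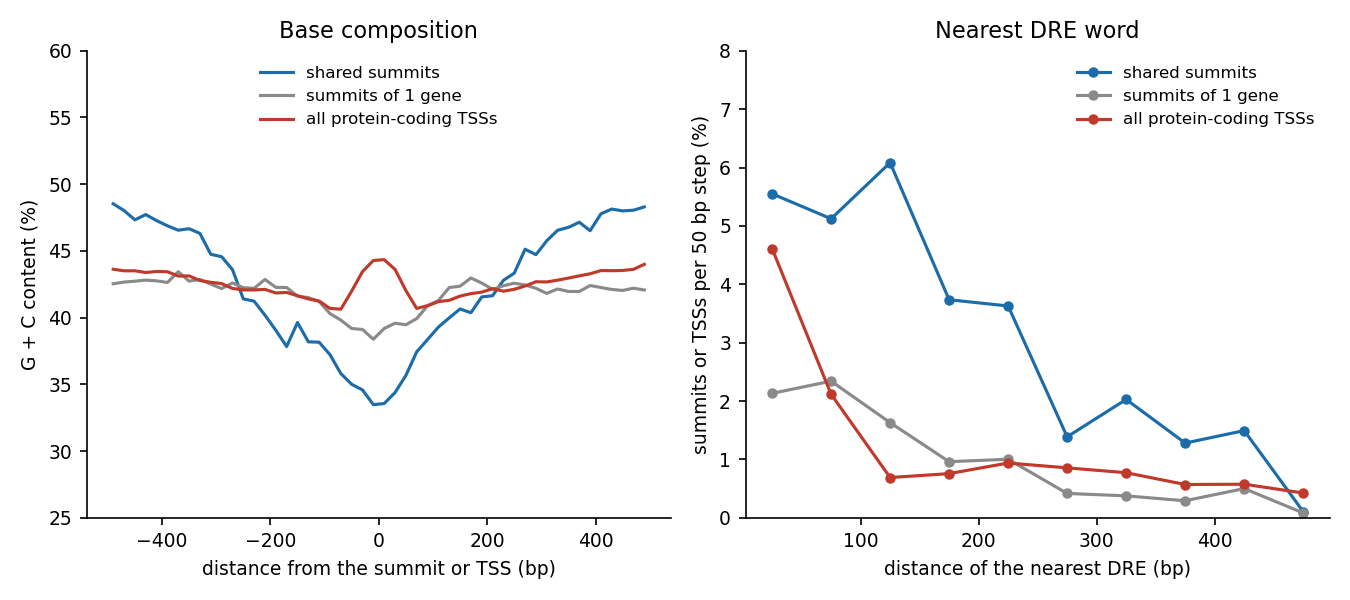
Left, mean G + C content (%) in steps of 20 bp around shared summits, summits of 1 gene and all protein-coding TSSs, with the trough of 33.5% at shared summits. Right, percent of summits or TSSs whose nearest DRE word lies in each 50 bp step of distance, with 5.55% of shared summits in the first step and 6.08% in the third.

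Groups of genes were read against the 12.2% of all protein-coding genes at a shared summit and the 24.6% at any. Of 73 mitochondrial ribosomal protein genes 32 had a shared summit (43.8%), and these were nearly all of the 34 with any summit. Beside mRpS23 and mRpS10 the strongest was mRpL23/CG9004 (signal value 1606). Of 90 cytoplasmic ribosomal protein genes 31 had a shared summit (34.4%), of 60 with any. RpS27 shared one with Nup37, of the nuclear pore (1044), and RpL32 with CG7943 (942.7). No 2 members of either list shared a summit with each other. Partner density differs between lists: 82.2% of the mitochondrial and 63.3% of the cytoplasmic ribosomal genes had a partner TSS within 1000 bp, against 42.8% of all genes.

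Most other lists of general cell functions had more genes at a shared summit than the 12.2% of all genes, and most had more genes with a partner. Shared summits were found at 13 of 40 genes of Mediator and the TATA-binding-protein-associated factors (32.5%), led by MED30/Rev1 and MED27/elm. They were found at 30 of 112 membrane traffic genes (26.8%), led by Vti1b/Vha100-2, with a SNARE and a proton pump subunit, and by Vps33B/Fur1. They were found at 8 of 34 DNA replication genes (23.5%), where Mcm2 of the replicative helicase and RPA1 of the single-strand binding protein shared 1 summit (329.5, place 2334). Proteasome genes had 10 of 49 (20.4%), with Rpn6/ave, Rpn5/Hat1 and Rpn3/l(2)37Bb. Oxidative phosphorylation genes had 17 of 88 (19.3%), with ND-ASHI/Fum1, ND-MWFE/TppII and ND-24/corolla. Genes of the nuclear pore and RNA processing had 13 of 70 (18.6%), among them IntS6/Rtel1 and IntS11/Wdr24. Counting any promoter summit, oxidative phosphorylation (21.6%), proteasome (24.5%) and nuclear pore and RNA processing genes (22.9%) were at or below the 24.6% of all genes. A partner TSS within 1000 bp was present for 53.1% of proteasome genes up to 87.1% of nuclear pore and RNA processing genes, with Mediator at 77.5%. Of all 5985 genes with a partner 28.5% had a shared summit, against 21.3% of such nuclear pore and RNA processing genes, 33.3% for oxidative phosphorylation and for DNA replication, 38.5% for the proteasome, 41.9% for Mediator and 44.1% for membrane traffic.

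Translation initiation factors, at 5 of 44 (11.4%), were near the background, with eIF3h/senju, eIF4EHP/CG18428 and eIF4H1/CG34015. Genes known only by a CG number had 506 of 6104 (8.29%). At the low end were the chemosensory receptors, odorant-binding proteins and pickpocket channels, with 1 of 258 (Ir60e, beside CG13585), and the cuticle proteins, with none of 120, of which 1 had a promoter summit of any kind. Only 27.1% and 12.5% of these last 2 groups had a partner TSS within 1000 bp. Among chemosensory genes that had one, 1.43% had a shared summit, against 53.3% of the mitochondrial ribosomal genes that had one.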

How the data were processed

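The 3 biological replicates of the Fru-GFP larvae form 1 group, numbered as in the labels. Per the sample notes, the authors' deposited signal value is a score computed from ChIP and control alignments. The summit offset is the authors' deposited value in bases. Not given in the sources used here are the aligner, the peak caller with its settings and the cutoff of the IDR (irreproducible discovery rate). The thresholded list holds the 8996 strongest of 30000 regions of the pooled reads, and each replicate list holds 30000. Signal values were ranked within a list only, and 316 of the 8996 rows share an interval with another row.

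Genes and TSSs came from Ensembl release 115 (BDGP6.54, dm6 coordinates, 1-based). Whether a TSS is used in larvae was not measured. A replicate's own values used its 8996 strongest regions. Differences were tested over the 3 within-replicate differences by an exact two-sided sign-flip permutation test, which cannot reach 0.05 with 3 replicates. The test gives 0.25 whenever all 3 differences have the same sign, whatever their spread. Such p-values speak only for these samples. Intervals are 95% Wilson intervals and cover sampling of peaks or pairs only. Python 3.11.15, pandas 2.3.3, numpy 2.4.6, scipy 1.17.1 and matplotlib 3.10.9 were used, and the functions were tested on simulated data.

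The members, the 12 gene lists (symbol patterns) and the 12 words were chosen with earlier results of these data known. The P450 reductase gene Cpr was taken out of the cuticle list, and the chemosensory list was renamed for what it holds, after values were seen. The comparison of divergent pairs with and without a summit was added after seeing the data. Genes named are those at the 12, 6 and 4 strongest divergent, tandem and convergent members, at the members with the most genes, the extreme distances and the distance limit, and up to 3 per list with the strongest member. The sequences are intervals of at most 300 bp that overlap no exon. Pairs on chromosome arm 2R were not considered for them, which leaves out the strongest member, Golgin97/cnn. Alternatives were other promoter, presence and word distances, the 4498 strongest peaks, peaks in all 3 replicates, only the 5' end of each gene, and each replicate left out. The lists on the older build dm3 were not used here.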

Additional observations from a re-analysis of the deposited data

How the results depend on the processing

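A direction could reverse only in the divergent minus tandem, signal percentile and DRE differences, and none of these did. The number of summits and the percentages cannot change sign, so they say nothing about reversal. Of 62 values under alternatives 15 moved by less than the spread between replicates (for the count of summits, by less than 1.5 times) and 47 by more. Presence in all 3 replicates has no such spread, and the SD of presence in single replicates stood in for it. The causes were not tested beyond the construction of each alternative. All samples belong to 1 group, and the tests already compared values within each replicate. The results are given in the order number of shared summits, percent divergent, divergent minus tandem pairs (points), signal percentile difference, percent present in all 3 replicates, DRE difference (points) and percent of divergent summits between the TSSs, with main values of 937, 88.4, 15.4, 13.3, 63.7, 3.37 and 78.1. A limit of 250 bp gave 558, 86.0, 7.69, 21.9, 72.0, 0.863 and 79.4. A limit of 1000 bp gave 1314, 84.0, 13.7, 8.18, 61.5, 2.97 and 72.5. The 4498 strongest peaks gave 588, 88.8, 9.74, 2.00, 86.9, 2.26 and 81.0. Only the 5' end of each gene gave 856, 86.8, 14.3, 14.3, 64.1, 2.13 and 73.2. Peaks present in all 3 replicates gave 597, 88.8, 10.4, 5.03, no value for presence, 2.51 and 81.3. Leaving out each replicate in turn, with peaks present in both others, gave 655 to 677, 88.55 to 88.9, 10.8 to 12.1, 5.20 to 8.88, 69.9 to 72.3, 2.50 to 3.23 and 79.1 to 81.4. Where peaks were cut by signal or by presence, percentiles kept the scale of the full list, which narrows the possible difference. Presence was 76.6% within 250 bp and 81.1% in the whole replicate lists. In the whole lists summits of 1 gene had 81.3% and all peaks 83.8%, so the shared summits were not higher there. The DRE difference was 1.58 within 25 bp, 6.41 within 100 bp and 10.9 for the core CGATA. The divergent share was 95.3% without tandem pairs within 10 bp and 90.7% for summits with exactly 2 genes. Depth was unknown, so no limit of detection can be given.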

Other observations

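Of the 1805 divergent pairs without a shared summit in the thresholded list, 253 (14.0%) had 1 among the 21004 weaker regions of the pooled list. Of those weaker regions 547 (2.60%, interval 2.40% to 2.83%) lay at several protein-coding genes and 3544 (16.9%) at 1, against 10.4% shared in the thresholded list. A TSS of a noncoding gene also lay within 500 bp at 1.81% of the shared summits and at 6.69% of summits of 1 gene. At 125 genes a shared summit was accompanied by a further summit near no other protein-coding gene.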
